A study of Mus musculus with 12 samples.

Results

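The genes for making, packaging, clearing and sensing GABA were followed in the striatum and cortex of R6/2 mice. The set held 26 genes, chosen by symbol from 23282 gene rows and read in all 12 libraries. It comprised 16 subunits of GABA-A receptors, 2 subunits of the GABA-B receptor, 3 genes for GABA synthesis and vesicular packaging, 3 genes for uptake and breakdown, and 2 genes for receptor anchoring and trafficking.

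RNA of mouse striatum and cortex was sequenced from the 3′ end with the Lexogen QuantSeq kit. R6/2 mice, a model of Huntington's disease (HD), carry a fragment of the human HTT gene, exon 1 with a lengthened CAG tract, in addition to both of their own Htt copies, and WT littermates lack it. HD mice were sampled at 8 weeks, before symptoms, and at 13 weeks, after symptom onset, with 2 libraries for each age and region. WT mice of the same ages gave 1 library for each age and region, so a comparison with WT mice contains no spread between WT mice of 1 age. Total counts were 8814386 to 12091201 per library.

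GABA is made from glutamate by glutamate decarboxylase, loaded into vesicles by the vesicular GABA transporter, and removed by membrane transporters and GABA transaminase. GABA-A receptors are pentameric chloride channels whose subunits set their location and kinetics, and receptors with the δ subunit lie outside synapses and respond to low ambient GABA. GABA-B receptors are G protein-coupled heterodimers of Gabbr1 and Gabbr2 products. Striatal projection neurons are themselves GABAergic, whereas cortical GABA comes mainly from interneurons.

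Several libraries stood apart. The pre-symptomatic HD striatum replicate 2 held 2199 CPM (counts scaled to library size) of summed thalamic neuron markers, against 103 to 277 in the other striatal libraries, and 19860 CPM of oligodendrocyte markers, against 3196 to 6982. Its striatal projection neuron markers summed to 2343 CPM, against 7419 CPM in the other library of its group. The post-symptomatic HD cortex replicate 2 held 3026 CPM of choroid plexus markers. Drd2, which marks indirect-pathway projection neurons, had at most 4 counts in any library, although the other 9 of 10 striatal markers were measured. The ribosomal RNA gene Rn45s took 10.5% to 15.2% of counts in HD and 4.32% to 5.62% in WT libraries. Sex was inferred from counts of Xist and Y-linked genes. By these, HD replicates 1 were male and replicates 2 female, the 13-week WT libraries were female and the 8-week WT libraries male. The part of these differences in the results was not tested beyond the fits named here.

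**Figure D1:**
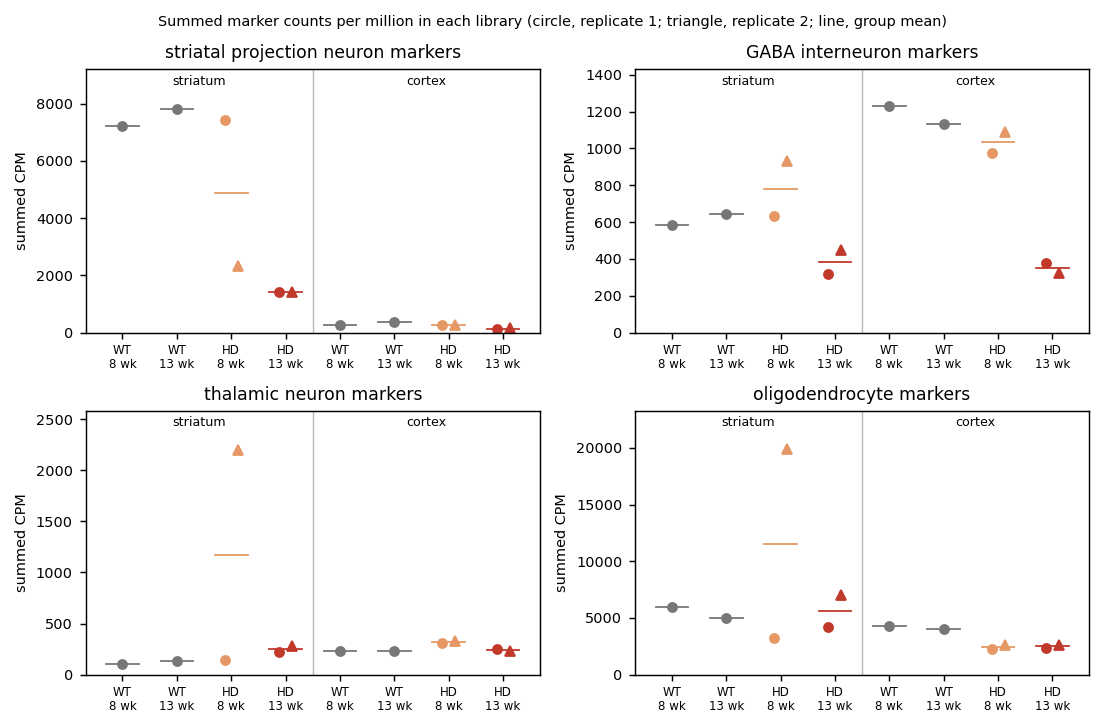
Summed CPM of 4 marker lists in each of the 12 libraries, by genotype, age and region. Circles are replicate 1, triangles replicate 2, and lines group means. Pre-symptomatic HD striatum replicate 2 stands at 2199 CPM for thalamic and 19860 CPM for oligodendrocyte markers, above every other library.

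The genes that passed as lower with stage in HD mice, Gabrd, Gabra4, Gabbr1 and Gad1, lie on different chromosomes. Promoter windows are shown for 3 genes. Of these, 2 are head-to-head neighbours, Gabra4, which fell in HD mice, and Gabrb1, which did not. The third is the synthetic enzyme gene Gad1, which fell. In the GENCODE M21 annotation (mm10), Gabra4 lies on the minus strand at chr5:71569749-71658308 and Gabrb1 on the plus strand at chr5:71658113-72149037, so that their 5′ ends overlap by 196 bases. Gabrd lies at chr4:155384980-155398112 on the minus strand, Gabbr1 at chr17:37045966-37075067 on the plus strand, and Gad1 at chr2:70553072-70602014 on the plus strand, where a gene of the opposite strand overlaps it. The windows run from 250 bases before to 50 bases after a RefSeq transcription start (GRCm38.p6), 5′ to 3′ on the strand of the gene. Capitals in the third mark matches, read on the opposite strand, to TATAAA and then to GCGGGGGCG, the site of EGR factors.
Gabra4, chr5:71658259-71658558, minus strand: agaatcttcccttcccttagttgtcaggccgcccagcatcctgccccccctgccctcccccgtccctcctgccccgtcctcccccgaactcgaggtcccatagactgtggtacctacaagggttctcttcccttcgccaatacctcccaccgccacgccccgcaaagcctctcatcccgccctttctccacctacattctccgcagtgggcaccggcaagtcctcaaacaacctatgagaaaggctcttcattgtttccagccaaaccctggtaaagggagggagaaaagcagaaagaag
Gabrb1, chr5:71657671-71657970, plus strand: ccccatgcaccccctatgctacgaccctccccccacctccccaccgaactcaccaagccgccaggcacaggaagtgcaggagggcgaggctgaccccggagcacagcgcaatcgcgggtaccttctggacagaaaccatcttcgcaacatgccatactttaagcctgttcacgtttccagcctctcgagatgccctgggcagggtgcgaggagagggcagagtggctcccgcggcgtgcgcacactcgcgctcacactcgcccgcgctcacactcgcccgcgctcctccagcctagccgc
Gad1, chr2:70561879-70562178, plus strand: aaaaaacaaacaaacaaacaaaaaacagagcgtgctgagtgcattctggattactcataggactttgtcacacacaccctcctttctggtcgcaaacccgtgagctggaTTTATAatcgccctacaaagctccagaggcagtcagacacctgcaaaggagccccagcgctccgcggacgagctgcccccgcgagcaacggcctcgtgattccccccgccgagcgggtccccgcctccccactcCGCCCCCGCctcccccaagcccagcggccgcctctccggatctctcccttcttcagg

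Windows were found for 24 of the 26 genes, 30 windows in all, and none for Gabrd or Abat. Short motifs were searched on both strands. The cAMP response element TGACGTCA was in 0 of the 30 windows and in 1.79% of all 32851 windows. Its core TGACG, which the full element also contains, was in 3 windows, those of Gabrb2, Gabrr1 and Gad2, against 20.8% of all windows. The letters GCGGGGGCG were in 1 window, that of Gad1, or 3.33%, against 2.91% of all windows, and GCGTGGGCG in 0 windows against 0.612%. TATAAA was in 4 windows, of Gabra3, Gabrb2 and Gad1, or 13.3%, against 13.6%. The median GC content of the windows was 58.8%, against 52.7% over all windows.

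The first comparison asked which of these genes changed in HD mice between the pre-symptomatic and post-symptomatic ages, over both regions. Of 19 genes with enough counts to test, 4 fell and 0 rose, against 4.53% of all 13944 tested genes that fell. Those that fell were the δ subunit Gabrd, the α4 subunit Gabra4, the GABA-B subunit Gabbr1 and the decarboxylase Gad1. The α4 and δ subunits assemble together in extrasynaptic receptors of the forebrain. The median log2 fold change over the 19 was −0.30, against 0.0023 over all tested genes. Here and throughout, folds and p-values come from the quasi-likelihood test of edgeR, and p-values were adjusted by Benjamini-Hochberg over all tested genes.

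Gabrd showed the steepest loss of the 4. In the striatum it stood at 88.7 and 74.4 CPM in the pre-symptomatic HD libraries, replicates 1 and 2, and at 13.7 and 19.5 CPM in the post-symptomatic ones. In the cortex it stood at 60.3 and 54.4 CPM before and at 14.9 and 14.6 CPM after onset. The 4 post-symptomatic HD libraries lay below every other library of their region, WT included, where the values were 95.1 and 107 CPM in the striatum and 69.4 and 52.4 CPM in the cortex at 8 and 13 weeks. The change was −2.12 ± 0.15 on the log2 scale (SE, 8 libraries, edgeR adjusted p = 0.000201), a 4.34-fold fall.

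Gabra4 fell by 0.89 ± 0.14 on the log2 scale (SE, edgeR adjusted p = 0.00829). It stood at 250 and 284 CPM in the pre-symptomatic HD striatum and at 121 and 108 CPM in the post-symptomatic HD striatum. In the HD cortex it stood at 151 and 170 CPM before and at 109 and 105 CPM after onset. No post-symptomatic HD library reached the lowest WT value of its region, which was 222 CPM in the striatum and 140 CPM in the cortex. Its head-to-head neighbour Gabrb1, a β subunit, held 30.8 to 71.7 CPM over all 12 libraries and its HD groups overlapped in the striatum and were slightly higher after onset in the cortex (0.10 ± 0.17 on the log2 scale over both regions, edgeR adjusted p = 0.77).

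Gad1, which encodes the 67 kDa glutamate decarboxylase, fell by 0.77 ± 0.16 on the log2 scale (SE, edgeR adjusted p = 0.0239). Cortical values were 150 and 143 CPM before and 58.3 and 75.8 CPM after onset in HD mice. Striatal values in HD mice were 222 and 249 CPM before and 163 and 182 CPM after onset. The WT striatum stood at 410 CPM at the earlier and 337 CPM at the later age, above every HD striatal library. The WT cortex stood at 146 CPM at the earlier and 184 CPM at the later age. Before onset, the log2 ratio of mean HD to WT CPM was −0.80 in the striatum and 0.0036 in the cortex. The striatal log2 ratio of later to earlier CPM was −0.45 in HD and −0.28 in WT mice. These ratios were not tested. HD groups did not overlap in either region, and the step was wider in the cortex. Gad2, the other decarboxylase, stood at 89.6 and 81.0 CPM before and 53.1 and 61.6 CPM after onset in the HD cortex, but its striatal HD libraries overlapped (−0.38 ± 0.18, edgeR adjusted p = 0.26). Without pre-symptomatic HD striatum replicate 2, in which Gad2 stood at 204 CPM against 386 CPM in replicate 1, Gad2 also fell (−0.57 ± 0.11, edgeR adjusted p = 0.00490).

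Gabbr1, the ligand-binding subunit of the GABA-B receptor, fell by 0.61 ± 0.12 on the log2 scale (SE, edgeR adjusted p = 0.0181). It stood at 717 and 543 CPM in the pre-symptomatic and at 409 and 342 CPM in the post-symptomatic HD striatum. In the HD cortex it stood at 473 and 473 CPM before and 341 and 327 CPM after onset. The groups did not overlap in either region.

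**Figure D2:**
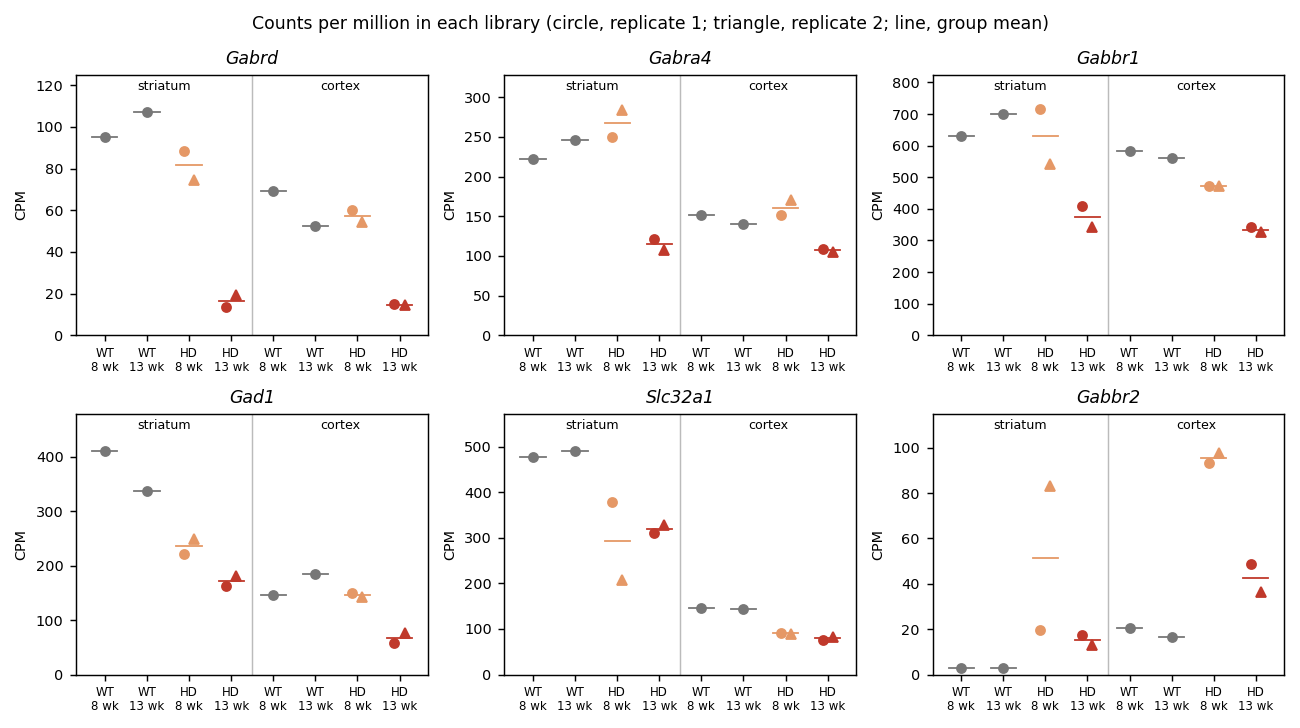
CPM of 6 genes in each of the 12 libraries, by genotype, age and region. Circles are replicate 1, triangles replicate 2, and lines group means. Gabrd sits at 13.7 to 19.5 CPM in the 4 post-symptomatic HD libraries and at 52.4 CPM or more in all others, and Gabbr2 sits higher in every HD library than in the WT libraries of its region.

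Gabrd and Gabra4 kept this call in each of 15 alternatives, but Gabbr1 lost it in 6 and Gad1 in 5 of the 8 fits that left out 1 HD library, with edgeR adjusted p up to 0.0706 and 0.0993. The number of the 26 genes called was 2 without any 1 of HD cortex replicates 1 and 2 of either stage or post-symptomatic HD striatum replicate 1, 7 without pre-symptomatic HD striatum replicate 1, and 6 without replicate 2. All genes lost calls in the fits that left 2, with 1.48% to 2.45% called in either direction. They gained calls in the last 2 fits, with 10.3% and 10.6% called in either direction, against 6.45% with all HD libraries.

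Read by region, Gabrd fell in both. In the striatum, 2 of 19 tested genes fell, against 0.146% of all 14392 tested genes. They were Gabrd (−2.26 ± 0.22, edgeR adjusted p = 0.00742) and Gabra4 (−1.19 ± 0.16, edgeR adjusted p = 0.0326). In the cortex, 2 of 19 fell, against 0.556%, and they were Gabrd (−1.97 ± 0.22, edgeR adjusted p = 0.0117) and Gad1 (−1.13 ± 0.18, edgeR adjusted p = 0.0366). Gabra4 had −0.60 ± 0.16 in the cortex (edgeR adjusted p = 0.14), and Gad1 had −0.42 ± 0.18 in the striatum (edgeR adjusted p = 0.37). The difference between regions was itself tested, and 0 of 19 genes passed, as did 0.0% of all genes, with edgeR. At an unadjusted p under 0.05, 2 of the 19 and 519 of all genes differed, and DESeq2 also called 0 of the 19. The striatal change less the cortical one was −0.59 ± 0.22 for Gabra4 and 0.72 ± 0.25 for Gad1, so neither shift is shown to belong to 1 region.

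Each of these regional calls was lost in some fit that left out 1 library, with 0 to 7 genes called in the striatum and 0 to 8 in the cortex. In the striatum, every call was lost without either post-symptomatic HD striatum library or pre-symptomatic HD cortex replicate 1. Some were lost without any of the other HD cortex libraries. In the cortex, every call was lost without any of the HD cortex libraries, and some without either post-symptomatic HD striatum library. Such a fit leaves 1 library in a group, and fewer of all genes were called in each of them too. Gabrd stayed between −2.54 and −2.03 in the striatum and between −2.04 and −1.89 in the cortex over all alternatives. The highest counts came without pre-symptomatic HD striatum replicate 1, which left 7 and 8 calls, and the counts without replicate 2, the library with thalamic markers, were 4 and 8. Of all genes, 7.2% and 7.02% were called in the striatum and 7.99% and 7.98% in the cortex in these fits, against 0.16% and 0.591% with all HD libraries. In the fit without replicate 2 the GABA transporter gene Slc6a11 differed between regions (1.14 ± 0.25, edgeR adjusted p = 0.0456), and it stood at 287 CPM in the library left out, against 84.8 CPM in the other library of the group.

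**Figure D3:**
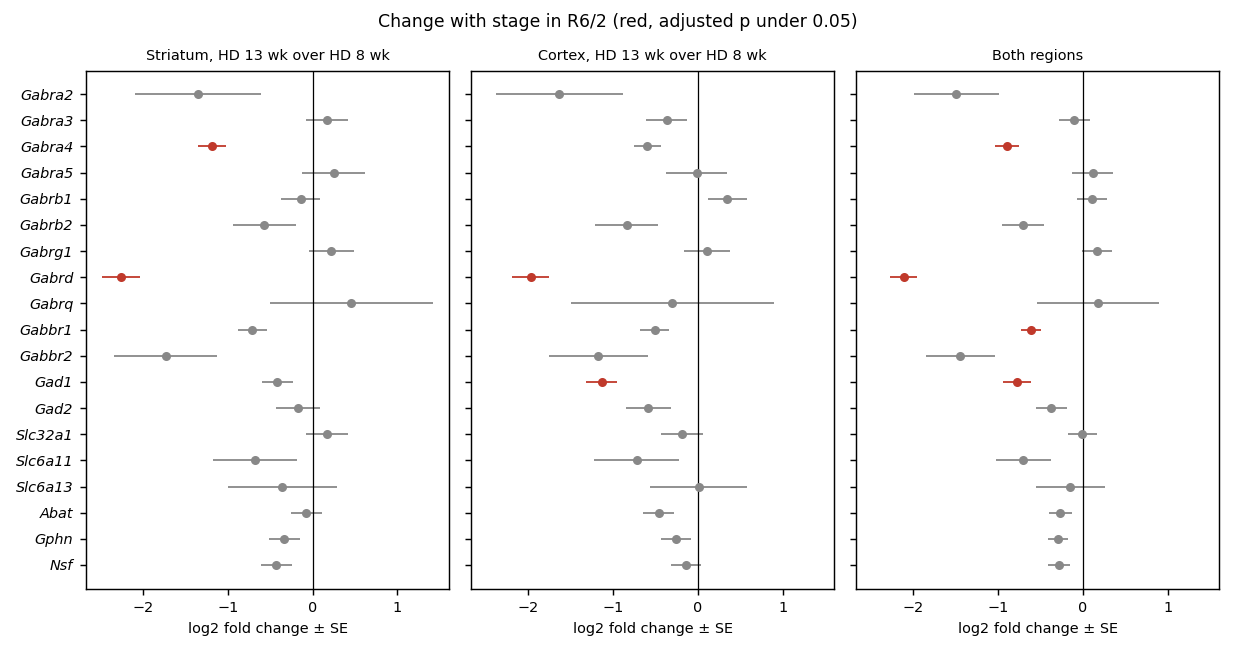
Log2 fold change (± SE) of the 19 tested genes from the pre-symptomatic to the post-symptomatic age in HD mice, in the striatum, in the cortex and over both. Red marks an adjusted p under 0.05. Gabrd lies furthest to the left in all 3 panels, at −2.26, −1.97 and −2.12.

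Other members of the receptor family showed shifts that did not pass. Gabra2, an α subunit of synaptic receptors, stood at 63.3 and 23.7 CPM before onset in the HD striatum, and at 24.99 and 7.91 CPM after onset, and at 45.2 and 39.3 CPM before and 21.1 and 6.27 CPM after onset in the HD cortex. Replicate 2, the female, was lower than replicate 1 in all 4 HD groups, and the change was −1.49 ± 0.50 (edgeR adjusted p = 0.13, and 0.0115 with the replicate number as a block). Gabrb2, the β2 subunit, stood at 404 and 396 CPM before and 204 and 245 CPM after onset in the HD cortex. Its striatal HD values were 154 and 366 CPM before and 149 and 194 CPM after onset, which overlap, and the change over both regions was −0.71 ± 0.25 (edgeR adjusted p = 0.14). Gabra3, Gabra5, Gabrg1 and Gabrq had log2 fold changes of −0.10, 0.11, 0.16 and 0.17, with SEs of 0.18, 0.25, 0.18 and 0.72. The scaffold gene Gphn (gephyrin, −0.30 ± 0.12) and the trafficking ATPase gene Nsf (−0.29 ± 0.13) did not pass either. The vesicular GABA transporter gene Slc32a1 had −0.01 ± 0.17, the transaminase gene Abat −0.27 ± 0.14, and the uptake genes Slc6a11 and Slc6a13 −0.70 ± 0.33 and −0.15 ± 0.41.

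The remaining 7 genes were too low to test in this comparison. Gabra6, Gabre and Gabrr3 had 0 counts in all 12 libraries. Gabrp had at most 1 count and Gabrr1 at most 3 counts in a library. Gabrg3 had at most 12 counts and Gabrr2 at most 27. The last of these was above every WT library of its region in 7 of 8 HD libraries, at counts of 2 to 27, and did not pass in the fit that tested it.

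The second comparison set HD against WT mice of the same age, over both regions. At 13 weeks, 5 of 19 genes were lower in HD mice and 0 were higher, against 4.26% of all 14706 tested genes that were lower. Gabrd was lower by −2.28 ± 0.19 on the log2 scale (SE, edgeR adjusted p = 0.000117), Gad1 by −1.21 ± 0.19 (edgeR adjusted p = 0.00408), Gabbr1 by −0.82 ± 0.14 (edgeR adjusted p = 0.00657), Gabra4 by −0.74 ± 0.17 (edgeR adjusted p = 0.0232) and Slc32a1 by −0.73 ± 0.19 (edgeR adjusted p = 0.0376). The median of the 19 was −0.43, against 0.01 over all tested genes. The 4 genes that fell with stage are also lower here, and both comparisons use the post-symptomatic HD libraries.

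The ratio of mean HD to WT CPM for Gabrd at 13 weeks was −2.69 on the log2 scale in the striatum, a 6.46-fold lower level, and −1.83 in the cortex. For Gabra4 the ratios were −1.10 in the striatum and −0.39 in the cortex. For Gad1 they were −0.97 and −1.46, and for Gabbr1 −0.90 and −0.75. These ratios rest on 1 WT library each and were not tested.

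Slc32a1 was lower than both WT libraries of its region in all 8 HD libraries, at either age. It stood at 478 and 490 CPM in the WT striatum at 8 and 13 weeks, and at 378 and 207 CPM before and 311 and 328 CPM after onset in the HD striatum. In the cortex it stood at 147 and 145 CPM in WT mice, and at 90.7 and 89.6 CPM before and 76.3 and 83.1 CPM after onset in HD mice. Its difference at 8 weeks was of like size but did not pass (−0.71 ± 0.19, edgeR adjusted p = 0.093). The 13-week call was lost in 11 of 21 alternatives. Abat also lay below both WT libraries of its region in all 8 HD libraries, without passing (−0.47 ± 0.15 at 13 weeks, edgeR adjusted p = 0.087). At 8 weeks the margin was slight in the cortex, at 87.05 and 86.48 CPM in HD against 87.13 CPM in WT mice. In the striatum it was 200.3 and 159.7 CPM in HD against 202.2 CPM in WT mice. The 8-week difference over both regions was −0.09 ± 0.16 (edgeR adjusted p = 0.86).

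Gabrd kept the 13-week call in each of 21 alternatives. Only 1 gene of the 26 was called without either the post-symptomatic WT striatum or the post-symptomatic WT cortex library, 3 without post-symptomatic HD striatum replicate 1, and 9 without pre-symptomatic HD striatum replicate 2, of which 8 were lower and Gabbr2 was higher. Of all genes, 0.19% and 1.45% were called in the first 2 of these fits, 4.29% in the third and 12.5% in the fourth, against 7.36% with all libraries.

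At 8 weeks, 1 of 19 genes was higher in HD mice and 0 were lower, against 1.95% of all 14706 tested genes that were higher. This was Gabbr2, the GABA-B subunit that couples to the G protein. In the striatum it stood at 3.01 and 2.77 CPM in WT mice at 8 and 13 weeks (30 and 29 counts), at 19.8 and 83.3 CPM in pre-symptomatic HD mice, and at 17.6 and 12.8 CPM in post-symptomatic HD mice. In the cortex it stood at 20.5 and 16.3 CPM in WT mice, 93.4 and 97.9 CPM in pre-symptomatic HD mice, and 48.9 and 36.5 CPM in post-symptomatic HD mice. All 8 HD libraries were above both WT libraries of their region, and in both regions the post-symptomatic HD libraries lay between the WT and the pre-symptomatic HD libraries. The difference was 3.01 ± 0.64 on the log2 scale at 8 weeks (SE, edgeR adjusted p = 0.0449) and 1.78 ± 0.60 at 13 weeks (edgeR adjusted p = 0.11), and the change with stage in HD mice was −1.45 ± 0.41 (edgeR adjusted p = 0.081).

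The 83.3 CPM of Gabbr2 came from the striatal library with thalamic and oligodendrocyte markers. Without that library the difference at 8 weeks was 2.40 ± 0.31 (edgeR adjusted p = 0.00190), that at 13 weeks 1.86 ± 0.30 (edgeR adjusted p = 0.00178), and the change with stage −0.87 ± 0.19 (edgeR adjusted p = 0.0133). The 8-week call was lost in 16 of 21 alternatives, among them 10 of the 12 that left out 1 library, such as the fit without the pre-symptomatic WT striatum. Fewer of all genes were called in most fits that left out 1 library too. The 8-week difference of Gabbr2 stayed between 2.40 and 3.86 over all alternatives.

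**Figure D4:**
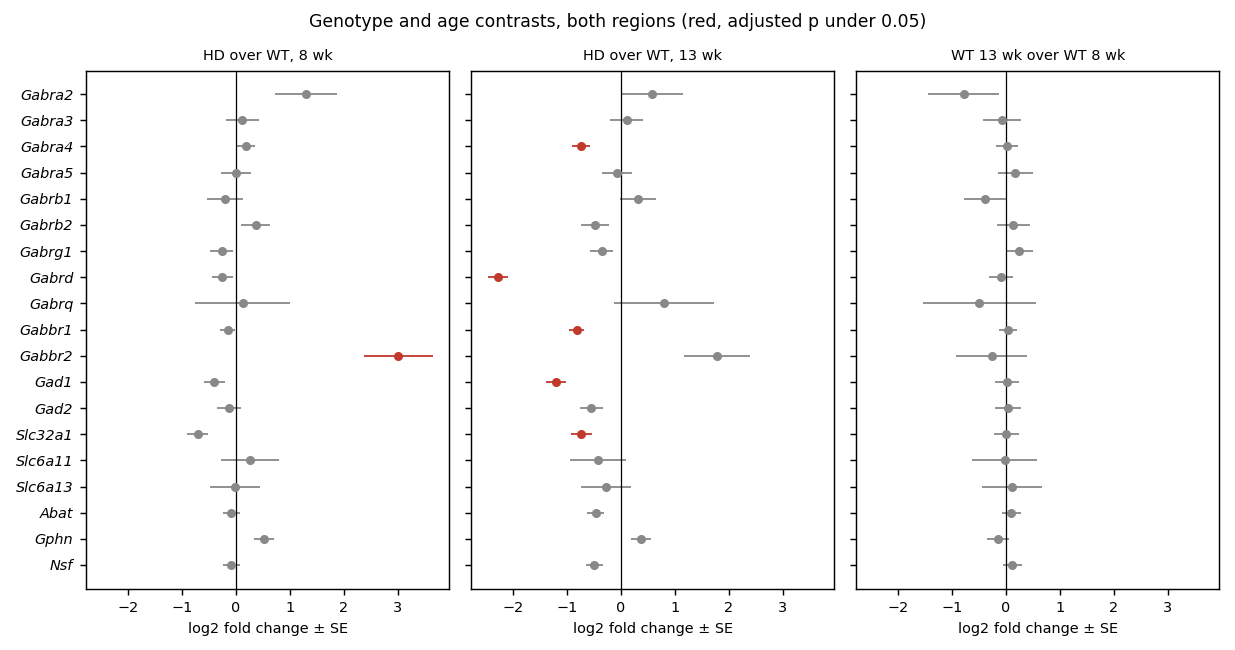
Log2 fold change (± SE) of the 19 tested genes between HD and WT mice at 8 weeks and at 13 weeks, and between the ages in WT mice, over both regions. Red marks an adjusted p under 0.05. Gabbr2 is the only red gene at 8 weeks, at 3.01, and 5 genes are red to the left of 0 at 13 weeks.

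In WT mice, 0 of 19 genes differed between 13 and 8 weeks with edgeR, against 0.0136% of all tested genes. Of the 19, 0 had an unadjusted p under 0.05, and DESeq2 and voom also called 0. The 8-week WT libraries were male and the 13-week ones female, so age and sex cannot be told apart in WT mice. Gabrd had −0.09 ± 0.22, Gabra4 0.02 ± 0.20, Gad1 0.01 ± 0.23 and Gabbr1 0.04 ± 0.17. The change with stage in HD mice less the change with age in WT mice was tested in the same fit. Of 19 genes, 1 passed, Gabrd, at −2.03 ± 0.28 (SE, edgeR adjusted p = 0.0258), against 0.102% of all genes that were lower. Gabra4 had −0.92 ± 0.25 (edgeR adjusted p = 0.22), Gad1 −0.81 ± 0.28 (edgeR adjusted p = 0.37) and Gabbr1 −0.67 ± 0.21 (edgeR adjusted p = 0.29). The Gabrd call was lost in 10 of 21 alternatives, 8 of them without 1 library, and with sex as a term its adjusted p in edgeR was 0.0714. It had an adjusted p of 0.258 without the post-symptomatic WT striatum, and its size stayed between −2.34 and −1.68.

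HD and WT mice were also compared in each region over both ages. In the striatum, 1 of 21 tested genes was higher in HD mice, against 1.63% of all 15337 tested genes, and 2 were lower, against 1.55%. These were Gabbr2 (3.27 ± 0.65, edgeR adjusted p = 0.0499), Gabrd (−1.46 ± 0.17, edgeR adjusted p = 0.00975) and Gad1 (−0.89 ± 0.15, edgeR adjusted p = 0.0230). In the cortex 1 gene was lower, Gabrd (−1.06 ± 0.18, edgeR adjusted p = 0.0461), against 0.143%. Gad1 had −0.73 ± 0.15 (edgeR adjusted p = 0.070) and Gabbr2 1.80 ± 0.55 (edgeR adjusted p = 0.19) in the cortex. The difference between the regions passed in 0 of 21 genes with edgeR and in 0.0% of all genes. At an unadjusted p under 0.05, 3 of the 21 and 1234 of all genes differed, and DESeq2 called 0 of the 21 and 57 of all genes. Leaving out pre-symptomatic HD striatum replicate 1 or 2 gave 4 and 2 such calls, where 8.42% and 0.917% of all genes were called. It gave 9 and 6 calls in the striatum, where 21.0% and 10.5% of all genes were called, and 8 and 8 in the cortex, where 1523 and 1529 of all genes were. Leaving out any other HD library kept only the Gabrd call in the striatum and no call in the cortex. Such a fit leaves 1 library in a group, and fewer of all genes were called in it too. Gabrd stayed between −1.10 and −1.02 in the cortex over all alternatives.

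Summed marker levels of several cell types also differed between the groups. Summed striatal projection neuron markers were 1421 and 1433 CPM in the post-symptomatic HD striatum, against 7232 and 7825 CPM in WT striatum, and 3 of 9 tested markers fell with stage. Summed GABA interneuron markers were 381 and 324 CPM in the post-symptomatic HD cortex, against 975 and 1090 CPM in the pre-symptomatic HD cortex and 1231 and 1131 CPM in WT cortex, and 2 of 8 fell with stage. Both shares stand against 4.53% of all genes. In the HD cortex, 6 of the 8 interneuron markers were lower in both post-symptomatic libraries than in both earlier ones, Nos1 overlapped, and Lhx6 was higher, at 4.50 and 4.24 CPM before and 7.22 and 5.56 CPM after onset. Most of the summed level came from the abundant Sst, Npy and Pvalb. In the HD cortex, 6 of 8 cortical glutamatergic, 5 of 6 astrocyte and 4 of 6 microglia markers were also lower. Of the choroid plexus and the cerebellar granule cell markers, 4 of 6 each were higher, as was the glutamatergic Neurod2. Summed cortical glutamatergic markers in HD cortex were 1266 and 1248 CPM after and 1750.5 and 1714 CPM before onset, against 1868 and 1983 CPM in WT. The share of all genes without overlap is not given here. Summed astrocyte markers were 2268 and 2484 CPM in the post-symptomatic HD cortex, against 4412 and 4412 CPM before onset and 3068 and 2972 CPM in WT cortex. In the striatum they were 1763 and 1974 CPM after and 3282 and 2900 CPM before onset, against 2633 and 2457 CPM in WT, and 1 of 6 astrocyte markers fell with stage. The part of these cell types in the results was not tested. Sst, Npy and Pvalb were above 0 in every library, and in bulk tissue fewer cells of a type and less RNA per cell cannot be told apart.

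By region, 14 of 19 genes differed. Over all 12 libraries, 8 of 19 genes were higher in the striatum, against 8.51% of all 14706 tested genes, and 6 were higher in the cortex, against 12.1%. Genes of GABA synthesis, packaging and breakdown were all higher in the striatum, with log2 differences of 1.94 ± 0.15 for Gad2 (edgeR adjusted p = 3.99e-06), 1.81 ± 0.14 for Slc32a1 (edgeR adjusted p = 3.3e-06), 1.19 ± 0.11 for Abat (edgeR adjusted p = 1.13e-05) and 1.08 ± 0.13 for Gad1 (edgeR adjusted p = 0.000136). Gad2 ran from 204 to 386 CPM in the striatum and from 53.1 to 99.3 CPM in the cortex, with no overlap. Gad1 did overlap, since its 163 and 182 CPM in the post-symptomatic HD striatum lay below the 184 CPM of the post-symptomatic WT cortex.

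Receptor subunits went both ways. Gabrg1 (0.79 ± 0.15), Gabra4 (0.51 ± 0.12), Gabrd (0.48 ± 0.13) and Gabrq (2.14 ± 0.60) were higher in the striatum, with edgeR adjusted p from 0.00227 to 0.0235. Gabrq rested on 2 to 42 counts per library. Gabrd and Gabra4 overlapped between the regions in post-symptomatic HD mice. There Gabrd stood at 13.7 and 19.5 CPM in the striatum and 14.9 and 14.6 CPM in the cortex. Gabra4 stood at 121 and 108 CPM in the striatum and 109 and 105 CPM in the cortex. The α3 subunit gene Gabra3 was higher in the cortex (−1.54 ± 0.21, edgeR adjusted p = 0.000492), with 101 to 165 CPM there and 32.3 to 65.2 CPM in the striatum. Gabbr2 (−1.59 ± 0.38), Gabra5 (−0.66 ± 0.19) and Gabrb2 (−0.60 ± 0.18) were also higher in the cortex, with edgeR adjusted p of 0.0151, 0.0244 and 0.0361. Gabbr2 and Gabrb2 overlapped between the regions, at up to 83.3 and 366 CPM in the striatum and from 16.3 and 204 CPM in the cortex. Of the other cortex-enriched genes, Nsf had −0.62 ± 0.11 (edgeR adjusted p = 0.00133), and Slc6a13, a GABA transporter gene of meninges and vessels, had −1.81 ± 0.32 (edgeR adjusted p = 0.00182), at 0.749 to 2.41 CPM in the striatum and 4.12 to 8.65 CPM in the cortex.

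The summed meningeal fibroblast markers ran from 89.2 to 199 CPM in the cortex and from 43.6 to 116 CPM in the striatum, and their part in the Slc6a13 difference was not tested. The number of genes called ran from 10 to 15 when 1 library was left out. The calls of Gabra5, Gabrb2, Gabrd, Gabbr2 and Gabrq were each lost in at least 2 such fits.

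**Figure D5:**
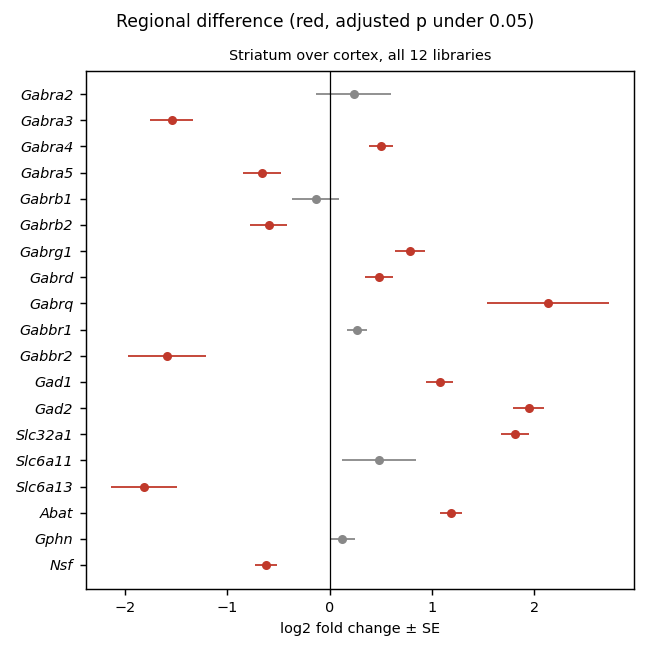
Log2 difference (± SE) between striatum and cortex for the 19 tested genes over all 12 libraries. Red marks an adjusted p under 0.05, with 8 genes to the right of 0 (higher in the striatum) and 6 to the left.

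A further 24 genes of GABA signalling, such as chloride transporters, receptor-associated proteins and GABA-B auxiliary subunits, were set beside the 26. Of 23 tested, 1 fell with stage in HD mice, 1 was lower in HD mice at 13 weeks and 1 was lower at 8 weeks, with 0 higher in any of these. The shares over all tested genes that were lower are 4.53%, 4.26% and 0.15%, so 1 of 23 is near the background in the first 2 comparisons. The first 2 calls were Trak1, which encodes a kinesin adaptor for mitochondria that has also been linked to GABA-A receptor trafficking (−0.69 ± 0.15, edgeR adjusted p = 0.0239, and −0.86 ± 0.18, edgeR adjusted p = 0.0141). It stood at 57.2 and 67.4 CPM in the post-symptomatic HD striatum, 87.5 and 88.3 CPM in the post-symptomatic HD cortex, and 84.9 to 147 CPM in the other 8 libraries. Within each region the post-symptomatic HD libraries were below all others. The third was Clptm1, a gene for a protein that holds GABA-A receptors back from the cell surface (−0.66 ± 0.13, edgeR adjusted p = 0.0202). It stood at 158 and 160 CPM in the 8-week WT cortex and striatum and at 92.2 to 115 CPM in all other libraries, 13-week WT included. The median stage change of the 23 was −0.04.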

How the data were processed

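The authors deposited raw read counts by gene symbol, 1 table for each library. Per the labels, libraries were made with a 3′ QuantSeq kit, and the submitters' processing notes name Bowtie2, bedtools and mm10 without versions or roles. The annotation, counting rule and strand setting are not given in the sources used here, so reads of overlapping genes on opposite strands may not be separated. Groups came from the sample labels. Between the replicates of an HD group, chi-square per degree of freedom was 7.23 to 78.2, above sampling noise.

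From the deposited counts, differences were fitted by the robust quasi-likelihood test of edgeR 4.0.16 in R 4.3.3 on all genes that passed filterByExpr (minimum count 10), after TMM scaling, with Benjamini-Hochberg adjustment and a threshold of 0.05. HD stage was fitted over 8 HD libraries with region as a term or with a mean per group. HD and WT were compared over 12 libraries with region and the 4 genotype-by-stage groups as terms, and within regions with 8 group means. Nothing states that libraries sharing a number came from separate or shared mice, and p-values measure the spread between these libraries. No molecular identifiers are stated, so reads copied in PCR may be counted more than once. CPM used TMM-scaled library sizes.

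The 26 genes and other lists were chosen with earlier results of these data known. All 26 are accounted for, and those past the threshold in any of 12 contrasts are given in full. Alternatives were upper-quartile normalization, DESeq2 1.42.0, testing unfiltered genes, at least 1 CPM in every library, removal of Rn45s, each library left out, a replicate block, limma 3.58.1 voom with libraries of 1 age, genotype and replicate number as a random block, sex as a term, and a mean for each of 8 groups. The scripts were tested on simulated data.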

Additional observations from a re-analysis of the deposited data

Results flagged for a closer look

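The loss of Gabrd with stage in HD mice differed from its change with age in WT mice by a test of the difference itself (−2.03 ± 0.28 on the log2 scale, edgeR adjusted p = 0.0258). The call was lost in 10 of 21 alternatives, with sex as a term among them (edgeR adjusted p = 0.0714), and in WT mice age cannot be told apart from sex. It was lower in the later HD libraries in 2 of 2 regions, while WT libraries went from 95.1 to 107 CPM in the striatum and from 69.4 to 52.4 CPM in the cortex.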

How the results depend on the processing

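For 40 single-gene results, 33 of them called, 584 fits of an alternative kept direction and side of the threshold, 127 lost the threshold, 16 gained it and 0 reversed direction. Over all tested genes of the 26 and all contrasts, 174 of 3924 estimates had the other sign, 23 of them without pre-symptomatic HD striatum replicate 2, and 0 belonged to a called result. With DESeq2 the genes called were 7 with stage in HD mice, 4 with stage in the striatum, 2 for HD against WT before onset, 2 for the HD stage change less the WT age change, and 4 for HD against WT in the cortex. Of all genes, DESeq2 called 10.6%, 3.55%, 4.59%, 1.78% and 2.8% in these comparisons, in this order. With edgeR the shares were 6.45%, 0.16%, 2.1%, 0.116% and 0.554%. With upper-quartile normalization 1 was called with stage in the cortex, where 0.313% of all genes were. For HD against WT before onset, 0 were called with no filter, without Rn45s, with voom or with a mean for each of 8 groups. Of all genes, 1.55%, 1.88%, 1.73% and 0.848% were called in these fits. For the HD stage change less the WT age change, 0 were called with sex as a term or with a mean for each of 8 groups. Of all genes, 0.0% and 0.013% were. For HD against WT in the cortex, 2 were called with no filter, as were 1.47% of all genes. The cause was not tested.

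When 1 library was left out, the calls ran from 2 to 7 with stage in HD mice (striatum 0 to 7, cortex 0 to 8, region difference 0 to 1), 1 to 9 for HD against WT after onset, 0 to 2 before onset, 0 to 1 for the stage change less the age change, 0 to 0 for age in WT mice, 10 to 15 between regions, and 1 to 9 in the striatum, 0 to 8 in the cortex and 0 to 4 for their difference. Pre-symptomatic HD striatum replicates 1 and 2 are far apart, and leaving out either gave the highest count in each range that went above 1. The shares of all genes called moved in the same fits, from 1.48% to 10.6% with stage in HD mice (striatum 0.0% to 7.2%, cortex 0.0% to 7.99%), 0.19% to 12.5% for HD against WT after onset, and 13.4% to 25.4% between regions.

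Deviations of same-numbered striatal and cortical HD libraries correlated at 0.167 after and 0.0995 before onset, and the numbers were not taken as pairs. With 2 libraries per group these values cannot tell shared from separate mice. Sex matched between the same-numbered libraries of each age. With the replicate block, 5 genes were called with stage in HD mice, 0 for HD against WT in the cortex, and for HD against WT after onset 4. Of all genes, 7.16%, 0.652% and 6.02% were called in these fits. Single WT libraries limit every comparison with WT mice.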
